A study of Mus musculus with 18 samples.

Results

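The cytosolic ribosomal protein genes were followed in alveolar macrophages from 3 mouse crosses labelled as deleted for Vhl together with Hif1a, with Hif2a (gene symbol Epas1), or with both. The genes were taken by name, as symbols starting Rpl or Rps with a number, plus Rpsa, Rplp0, Rplp1 and Rplp2, without pseudogenes and the S6 kinases, and had to reach a mean of 5 CPM (counts scaled to a common library size) over the libraries. This gave 81 of the 32789 genes in the table, 32 of the small 40S subunit and 49 of the large 60S subunit. Of 84 genes with a matching name, 3 stayed below the level: Rpl3l at 2.56 CPM, Rpl39l at 1.15 CPM and Rpl10l with 0 counts. The members closest above it were Rpl22l1 at 35.4 CPM, Rps27l at 49.8 CPM, Rpl7l1 at 78.9 CPM and Rpl36al at 96.3 CPM. All 81 passed the filter on low counts that left 12900 genes for testing.

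Macrophages came from bronchoalveolar lavage, were enriched with CD11c magnetic beads, and gave directional libraries of polyA RNA. Per the genotype labels the mice compared were a Vhl/Hif1a knockout, a Vhl/Hif2a knockout and a triple Vhl/Hif1a/Hif2a knockout, each driven by CD11c-Cre, a recombinase active in CD11c-positive cells. Each had its own control with the same floxed alleles, for which the labels do not say whether Cre was present. Each of the 6 groups held 3 libraries, 18 in all. The labels do not say that libraries of a group came from separate animals, so p-values measure the spread between these libraries, which may be technical. In bulk RNA of this kind, fewer cells of a type and less RNA per cell cannot be told apart.

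A ribosome joins one copy of most of these proteins with ribosomal RNA, and the protein genes are therefore usually transcribed at matched levels. Their mRNAs in mammals typically start with a cytosine followed by a run of pyrimidines, the 5′ terminal oligopyrimidine tract, through which mTOR and the RNA-binding protein Larp1 control translation, while Myc is a known activator of ribosome production. VHL targets HIF-1α and HIF-2α, which drive the response to low oxygen, for destruction. By the labels HIF-2α is left in the Vhl/Hif1a knockout, HIF-1α in the Vhl/Hif2a knockout and neither in the triple knockout, but gene counts given below went against the labels in part.

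The starts of 5 genes that were higher in the Vhl/Hif2a knockout under every alternative processing, and of 3 rarer paralogs that did not pass the test there, are shown as examples of how far the annotated starts carry a pyrimidine tract. Each line gives 50 bases from RefSeq (GRCm38.p6), 30 before and 20 after the annotated start, and capitals mark the longest run of C and T between 10 bases before and 20 after it.
Rpl14 (chr9:120571487-120571536, plus strand): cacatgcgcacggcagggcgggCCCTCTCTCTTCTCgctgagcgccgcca
Rps27 (chr3:90213629-90213678, minus strand): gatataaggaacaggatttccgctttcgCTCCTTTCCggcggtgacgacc
Rps26 (chr10:128626487-128626536, minus strand): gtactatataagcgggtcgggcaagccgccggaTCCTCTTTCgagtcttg
Rpl36a (chrX:134585624-134585673, plus strand): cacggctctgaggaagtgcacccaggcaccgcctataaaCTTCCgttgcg
Rpl23 (chr11:97782420-97782469, minus strand): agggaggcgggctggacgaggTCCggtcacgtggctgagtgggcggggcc
Rps27l (chr9:66946056-66946105, plus strand): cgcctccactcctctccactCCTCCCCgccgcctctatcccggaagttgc
Rpl22l1 (chr3:28805478-28805527, plus strand): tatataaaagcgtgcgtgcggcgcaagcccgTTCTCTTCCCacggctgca
Rpl7l1 (chr17:46782637-46782686, minus strand): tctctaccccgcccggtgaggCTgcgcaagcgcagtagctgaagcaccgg

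The run covered the annotated start in Rpl14 and Rps27, began just inside the transcript in Rps26 and Rpl22l1, and was short in Rpl36a, Rpl23 and Rpl7l1. A promoter window was found for 61 of the 81 genes, with 72 annotated starts among them. A C at the start followed by at least 4 pyrimidines was found at 13 of these 72 starts (18.1%), against 2.51% of all 32851 windows of the table. A run of at least 8 pyrimidines near the start was present in 24 of the 72 windows (33.3%), against 11.2% of all windows. Over the 300 bases of each window and both strands, CCGGAAG, the core bound by ETS factors such as GABP, occurred in 36.1% of the ribosomal protein windows and in 8.86% of all windows. AAGATGGC, a core of the YY1 motif, occurred in 11.1% and in 2.75%. ACGTG, the core of the hypoxia response element, occurred in 34.7% and in 19.6%, and CACGTG, the E-box read by Myc and Max, which contains ACGTG, in 11.1% and in 7.15%. TATAAA occurred in 9.72% of the ribosomal protein windows and in 13.6% of all windows. These matches describe letters in a window and not bound sites.

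Library totals ran between 19230000 and 34015000 counts, and were higher in the Vhl/Hif2a knockout (30787000 to 34015000) than in its control (19230000 to 25794000). Vhl itself was low in all knockout libraries, at 2.62 to 3.09 CPM in the Vhl/Hif1a knockout against 13.2 to 18.9 CPM in its control, at 1.92 to 2.48 against 17.5 to 20.1 CPM in the Vhl/Hif2a cross, and at 1.96 to 2.53 against 12.2 to 14.3 CPM in the triple cross. Counts of the other targeted genes went against the labels in part. Hif1a had 58.7, 78.6 and 61.7 CPM in the libraries labelled Vhl/Hif2a knockout, against 242, 179 and 231 CPM in their control (log2 -1.71 ± 0.18, edgeR adjusted p = 4.3e-06), and Epas1 was higher there, at 48.0 to 58.6 CPM against 23.2 to 35.1 CPM (0.975 ± 0.19, edgeR adjusted p = 0.0019). In the libraries labelled Vhl/Hif1a knockout Hif1a had 166 to 208.5 CPM, against 225 to 231.5 CPM in the control (-0.24 ± 0.18, edgeR adjusted p = 0.66). In the libraries labelled triple knockout neither passed, with Hif1a at 236 to 241 CPM against 137 to 251 CPM and Epas1 at 30.6 to 38.4 CPM against 32.6 to 51.4 CPM. Counts over a whole gene also cover exons outside a deletion, so whether the alleles were as labelled was not tested. Knockouts are named by their labels here, and every direction given for a cross rests on those labels. Alveolar macrophage markers summed to between 25140 and 43390 CPM in every library. The triple control library 2 and the Vhl/Hif1a knockout library 3 stood apart: across genes outside the list, a gene's deviation from its mean rose with its GC content (Spearman's rho 0.71 and 0.51), where the other 16 libraries gave between -0.35 and 0.02. The first of them also held 0.71% mitochondrially encoded counts, against 1.75% to 3.07% in the other libraries. Some of the counts, medians, correlations and paralog ratios are also given without them.

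As a share of all counts the ribosomal protein genes held between 2.44% and 3.64% of a library, with a median of 2.88%. In the Vhl/Hif2a knockout the shares were 3.54%, 3.64% and 3.39%, against 2.55%, 2.88% and 2.98% in its control. All 3 knockout libraries lay above all 3 controls, with a mean of 3.52% ± 0.12 against 2.80% ± 0.22 (SD, n = 3 each). In the Vhl/Hif1a knockout the shares were 2.90%, 2.80% and 3.43%, against 2.93%, 2.69% and 2.44% in its control. These groups overlapped, and the highest value came from the knockout library that stood apart. In the triple knockout the shares were 2.88%, 2.88% and 2.84%, against 2.75%, 3.48% and 2.84% in its control. Here the knockout libraries lay close together, and the control values were spread by the library that stood apart. The counts of the 40S genes amounted to 0.671 to 0.717 of those of the 60S genes over the 18 libraries, so the subunits moved nearly together in each library.

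**Figure D1:**
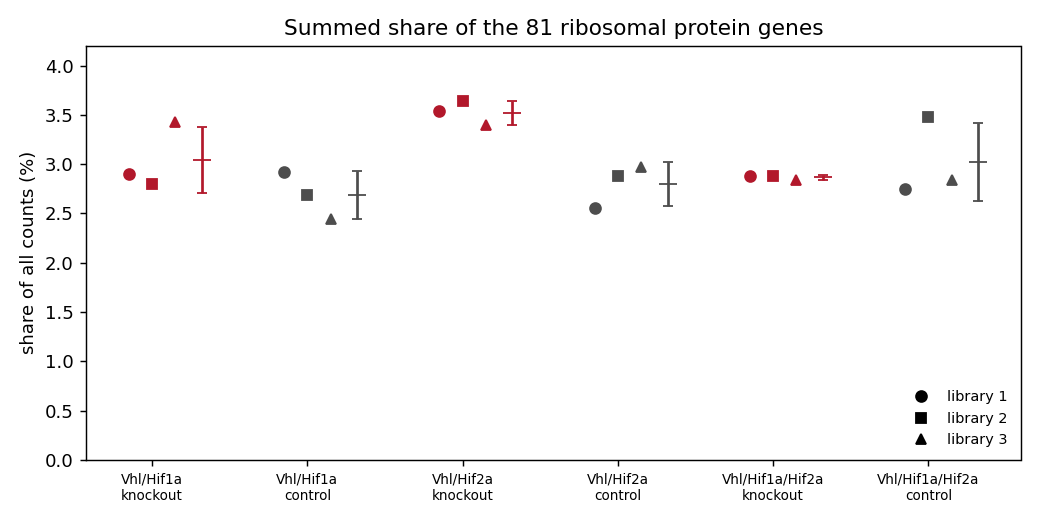
Share of all counts held by the 81 ribosomal protein genes, in percent, for each library (symbols give the library number) with the group mean and SD beside the points (n = 3). The Vhl/Hif2a knockout libraries sit between 3.39% and 3.64%, above every control of that cross, and the triple control library 2 sits at 3.48%.

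Per kilobase of summed exons, the median level of the 81 genes was 187 CPM. Rplp1, a protein of the flexible stalk that recruits elongation factors to the 60S subunit, had the highest level with 1321 CPM per kilobase, followed by Rps3a1 with 657 and the stalk base Rplp0 with 607 CPM per kilobase. Rpl22l1 was lowest at 17.8 CPM per kilobase, and Rpl7l1 next at 22.6 CPM per kilobase. The order depends on the length used: with the principal coding transcript Rplp1 stayed highest but Rps9 came next (831.5 CPM per kilobase), and the lowest were Rpl7l1 (30.3), Rps15a (44.0) and Rpl22l1 (64.1 CPM per kilobase). In counts not divided by length, Rplp0 (mean 1008 CPM), Rpl4 (845 CPM), a protein lining the nascent-chain tunnel, and Rps2 (775 CPM), at the mRNA entry of the 40S subunit, took the most reads. Over the 18 libraries, 49 of the 81 genes had a Pearson's r of at least 0.9 with the sum of the other ribosomal protein genes, and 72 at least 0.7. The lowest were Rpl7l1 (-0.29), Rpl22l1 (0.20), Rps27l (0.24), Rpl5 (0.32) and Rpl7 (0.39). Over the 16 libraries without those that stand apart, 68 genes had an r of at least 0.9 and 77 at least 0.7, and the lowest were Rpl7l1 (-0.17), Rps27l (0.33), Rpl10 (0.48) and Rpl22l1 (0.62). These coefficients describe libraries that share depth and groups.

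Ribosomal protein mRNA was higher in the libraries labelled Vhl/Hif2a knockout than in their control. Of the 81 genes, 32 rose and 0 fell at a Benjamini-Hochberg adjusted p under 0.05 in edgeR's quasi-likelihood test, where 7.68% of all 12900 genes were called higher and 7.01% lower. The median log2 fold change was 0.36, or 28.2% higher, with quartiles at 0.30 and 0.44, while the median over all tested genes was 0.00. The log2 fold change was above 0 for 80 of the 81 genes. For 78 of them all 3 knockout libraries exceeded all 3 control libraries, an arrangement found for 18.5% of all tested genes, and the 3 others were Rpl10, Rpl7l1 and Rps27l. Both subunits took part, with 12 of 32 genes of the 40S and 20 of 49 of the 60S called, each at a median of 0.36.

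Among the 60S genes, Rpl36a, whose protein lies at the exit site for transfer RNA, had 190.4, 185 and 182 CPM in the Vhl/Hif2a knockout libraries, against 119.9, 134 and 140.1 CPM in the control libraries. The groups were well apart, and its log2 fold change was 0.50 ± 0.08 (SE; edgeR adjusted p = 0.00042). Rpl22, a protein required in mice for development of αβ T cells, had 258, 228 and 235 CPM in the knockout and 162, 185 and 193 CPM in the control. The knockout libraries were again all higher, by 0.42 ± 0.08 on the log2 scale (edgeR adjusted p = 0.0021). Rpl23, on the face of the 60S that meets the 40S, had 717, 659.5 and 663 CPM in the knockout and 487, 535.5 and 566 CPM in the control. Its groups did not overlap, with a log2 fold change of 0.36 ± 0.075 (edgeR adjusted p = 0.0031). Rpl21 had 503, 477 and 463 CPM in the knockout against 355, 368 and 414 CPM in the control, also without overlap (log2 0.34 ± 0.07, edgeR adjusted p = 0.0036). Rpl14 had 395.5, 384 and 379 CPM in the knockout, against 277, 300 and 320.4 CPM in the control. All of its knockout values lay above the controls, at a log2 fold change of 0.37 ± 0.09 (edgeR adjusted p = 0.0084).

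Of the 40S genes, Rps27, a zinc finger protein, had 327, 318 and 313 CPM in the Vhl/Hif2a knockout and 176, 219.9 and 238 CPM in its control. The knockout libraries were close to each other and far above the controls, with a log2 fold change of 0.60 ± 0.14 (edgeR adjusted p = 0.0063). Rps26, which lies by the mRNA exit channel, had 368, 371.5 and 342 CPM in the knockout, against 219, 256.5 and 288 CPM in the control. Its groups were separate, at 0.50 ± 0.12 (edgeR adjusted p = 0.0083). Rps28, next to Rps26 at the exit channel, had the highest log2 fold change of the list, 0.68 ± 0.21 (edgeR adjusted p = 0.04), with 275, 272 and 257 CPM in the knockout and 142, 173 and 188 CPM in the control. Rps27a, which is translated as a fusion with ubiquitin, had 388, 382 and 359.9 CPM in the knockout against 277, 313 and 292 CPM in the control and rose by 0.36 ± 0.10 (edgeR adjusted p = 0.022).

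Further genes were chosen for a known role of their protein. Rpl5 and Rpl11 form a particle with 5S ribosomal RNA that can also bind Mdm2. Rpl5 had 822, 780.3 and 779 CPM in the Vhl/Hif2a knockout against 615, 690.1 and 652 CPM in its control (log2 0.28 ± 0.09, edgeR adjusted p = 0.044). Rpl11 had 399.9, 428 and 406 CPM in the knockout and 290, 325 and 348 CPM in the control (log2 0.36 ± 0.105, edgeR adjusted p = 0.029). Both were higher in every knockout library. Rpl39, in the wall of the nascent-chain tunnel, had 213, 219.9 and 219 CPM in the knockout against 123, 168 and 164.5 CPM in the control (log2 0.52 ± 0.13, edgeR adjusted p = 0.012). The stalk gene Rplp1 had 859.8, 851 and 781 CPM in the knockout and 462.5, 583 and 622 CPM in the control, a log2 difference of 0.58 ± 0.20 that did not pass (edgeR adjusted p = 0.069). Rps21 (0.63 ± 0.21, adjusted p = 0.061) and Rps6, the substrate of the S6 kinases (0.21 ± 0.08, adjusted p = 0.078), also did not pass in edgeR. Of the 3 genes with the most reads, Rpl4 passed (0.22 ± 0.065, adjusted p = 0.031), and Rplp0 (0.28 ± 0.12, adjusted p = 0.13) and Rps2 (0.30 ± 0.15, adjusted p = 0.23) did not.

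Genes that missed the threshold had a similar size of change and a larger error. The median SE was 0.098 over the 32 called genes and 0.151 over the 49 others, while the median log2 fold change was 0.36 in the called genes and 0.35 in the others. At the low end of the list, Rps27l had 49.8, 47.8 and 45.7 CPM in the Vhl/Hif2a knockout, against 42.6, 52.3 and 56.0 CPM in its control. Rpl7l1 had 80.0, 83.0 and 74.1 CPM in the knockout, against 81.7, 73.7 and 80.8 CPM in the control. The groups of both genes overlapped, with log2 values of -0.08 ± 0.13 (edgeR adjusted p = 0.80) and 0.01 ± 0.07 (edgeR adjusted p = 0.98).

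**Figure D2:**
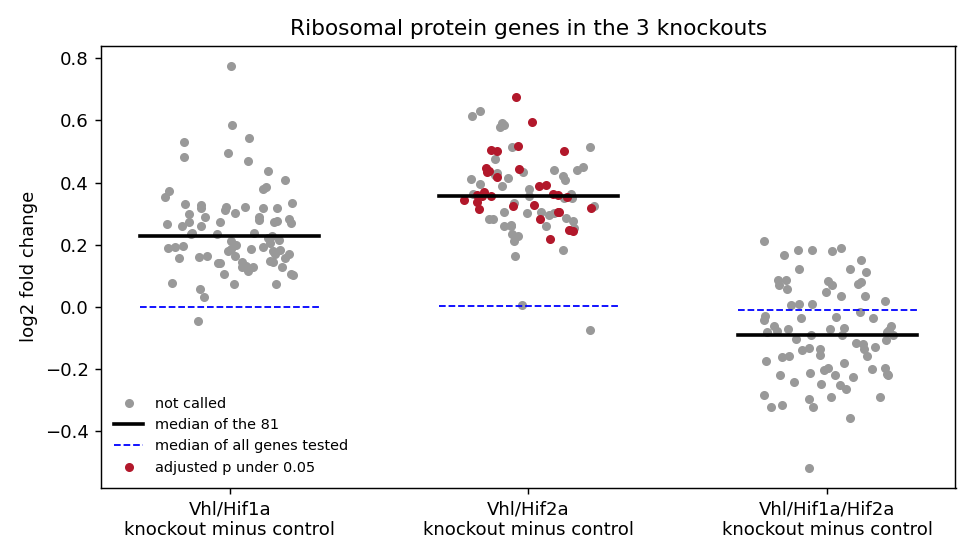
Log2 fold change of each of the 81 genes (points) in the 3 knockouts against their own controls; red points passed an adjusted p under 0.05 in edgeR, the black line is the median of the 81 genes and the dashed line that of all 12900 tested genes. In the Vhl/Hif2a knockout 32 points are red around a median of 0.36, and no point is red in the other crosses.

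The count of 32 depended on single libraries and the direction did not. Without 1 library it was 11, 12 or 18 (knockout library 1, 2 or 3 of the Vhl/Hif2a cross) and 8 or 16 (its control library 1 or 2). Without the triple control library 2, which stands apart and is in neither group of this comparison, it was 67, where 11.5% of all genes were called higher. Without both libraries that stand apart it was 72, where 12.6% of all genes were called higher, and the median log2 fold change was 0.36 as before. With offsets for GC content and length, 38 genes rose, where 11.1% of all genes were called higher, 1 fell, Rps27l (log2 -0.26, edgeR adjusted p = 0.048; 11.7% of all genes were called lower), and the median was 0.22. Both of these settings were chosen after seeing the data. Of the 32 genes, 7 were called in all 27 alternatives: Rpl14, Rpl21, Rpl22, Rpl23, Rpl36a, Rps26 and Rps27.

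Several of these counts are estimates that share reads with other copies in the genome. Every value was whole for 52 of the 81 genes, of which 20 were called, and none was whole for 19 genes, of which 7 were called. The median log2 fold change was 0.36 in those with whole values and 0.39 in those without. Among the 7 genes called in all alternatives, Rpl14, Rpl22 and Rpl23 had whole counts throughout, and Rpl21, Rpl36a, Rps26 and Rps27 had none, so the levels of these 4 are less certain. The clearest case was Rpl10, a protein added last to the 60S near its catalytic centre: it ranged between 187 and 459.7 CPM with a coefficient of variation of 28.6% over the 18 libraries, and the pseudogene Rpl10-ps3 was counted at 483 to 937 CPM. Their sum varied less, between 804 and 1224 CPM with a coefficient of 11.2%.

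In the libraries labelled Vhl/Hif1a knockout, 0 of the 81 genes passed in edgeR, where 2.22% of all genes were called higher and 1.42% lower. Higher at an unadjusted p under 0.05 were 25 genes, and DESeq2 called 2, Rpl10 and Rps27. Neither count has a share of all genes beside it, so neither is a result about the family. The median log2 difference was 0.23, 80 of 81 values were above 0, and 17 genes had all knockout libraries above all controls, against 11.8% of all genes. Rps27 came closest in edgeR, with 252, 231 and 298 CPM in the knockout and 221, 198 and 146 CPM in the control. Its groups did not overlap (log2 0.47 ± 0.14, edgeR adjusted p = 0.075). Rpl10 had 459.7, 221 and 369 CPM in the knockout, against 232, 187 and 194 CPM in the control, with overlap and with the shared reads named above (log2 0.78 ± 0.25, adjusted p = 0.12). Rpl36 had 111, 116 and 221 CPM in the knockout against 115, 97.4 and 85.6 CPM in the control, a log2 difference of 0.59 ± 0.30 (adjusted p = 0.45). Knockout library 3 was far above the controls in Rpl36, and the other knockout libraries lay close to control library 1. At the other end, Rpl7l1 had 83.1, 74.1 and 81.8 CPM in the knockout and 81.9, 80.7 and 84.3 CPM in the control, and Rpl22l1 had 32.5, 31.5 and 30.8 CPM in the knockout and 38.4, 32.5 and 21.9 CPM in the control. Both overlapped. Without the 2 libraries that stand apart, 0 of the 81 genes passed, where 2.67% of all genes were called higher, and the median was 0.125.

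In the libraries labelled triple knockout, 0 of the 81 genes passed, where edgeR called 0.0388% of all genes in either direction. None reached an unadjusted p under 0.05, and DESeq2 also called 0. The median log2 difference was -0.09, with 25 genes above 0 and 56 below. All knockout libraries exceeded all controls for 11 genes (6.99% of all genes) and lay below them for 1, Rpl37 (8.33% of all genes). Rpl36 had 126, 112 and 120 CPM in the knockout, against 116, 287 and 108 CPM in the control (log2 -0.52 ± 0.30, edgeR adjusted p = 0.44). Rps16 had 350.3, 358 and 359 CPM in the knockout, against 358, 659 and 351 CPM in the control (log2 -0.36 ± 0.20, adjusted p = 0.43). Control library 2 was far above the other 2 controls in both, and these lay close to the knockout values. At the high end that library was lowest instead: Rpl7 had 586, 589 and 576 CPM in the knockout against 541, 428 and 566 CPM in the control, and Rpl22l1 had 40.2, 41.0 and 41.0 CPM against 40.4, 23.8 and 41.2 CPM. Without this library the median log2 difference of the 81 genes was 0.04, above 0, and 0 genes passed.

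**Figure D3:**
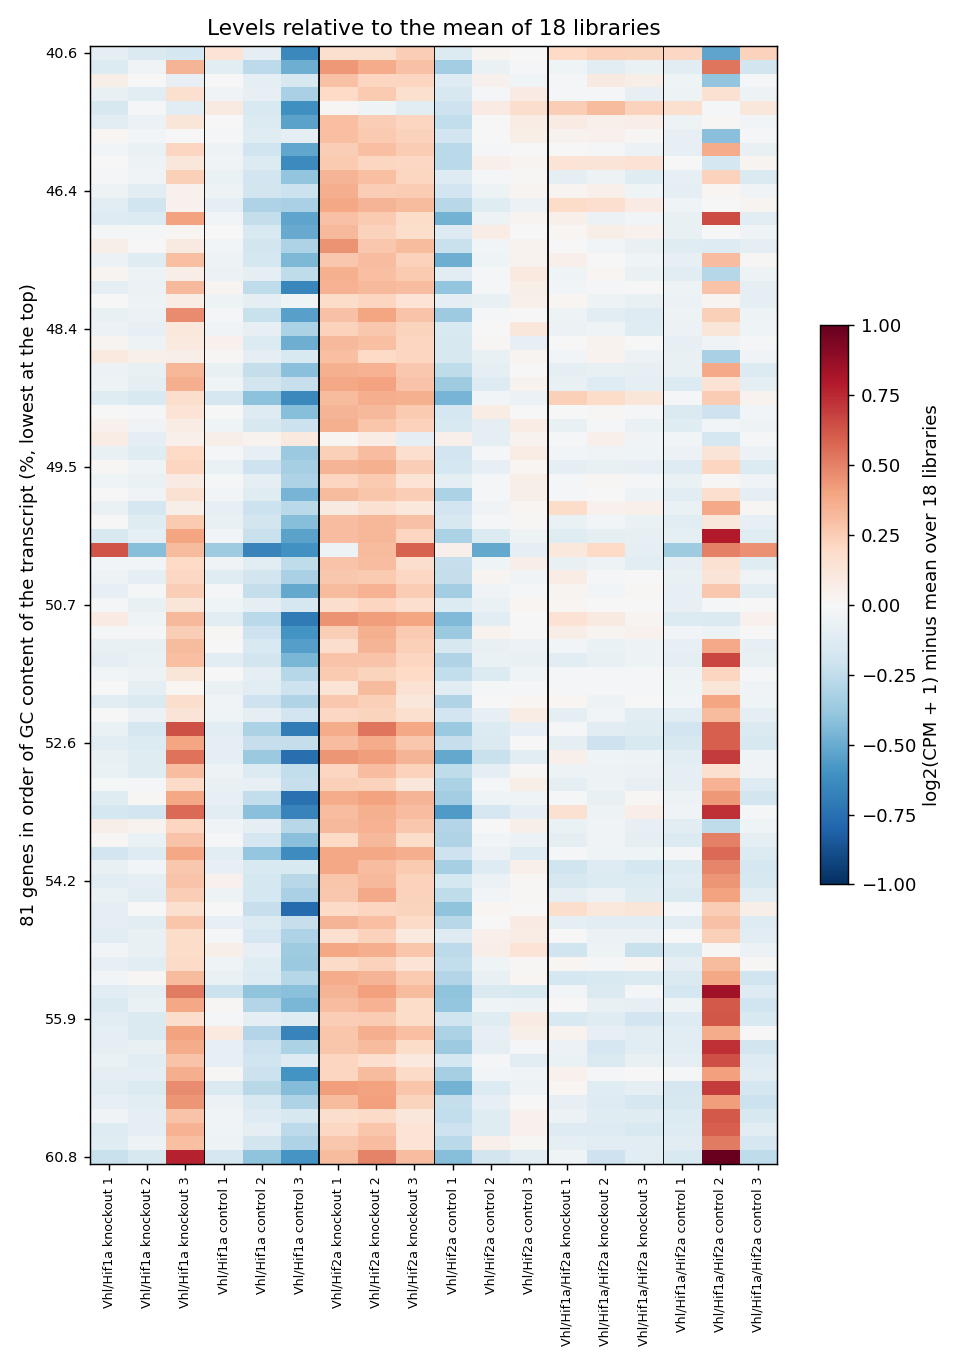
Level of each of the 81 genes (rows) in the 18 libraries (columns), as log2(CPM + 1) minus the gene's mean over the libraries, with genes ordered by GC content of the transcript from 40.6% (top) to 60.8% (bottom; the axis gives the GC content of every 10th gene). The Vhl/Hif2a knockout columns are red over nearly all genes, while the triple control library 2 is red mainly in the lower part, the genes of high GC content.

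The pattern along GC content can be read across genes, which are not independent replicates. Over the 81 genes, Spearman's rho between GC content and log2 fold change was -0.66 in the triple knockout, close to the -0.67 of all other tested genes. Without the libraries that stand apart these were -0.19 and -0.20. In the Vhl/Hif2a knockout it was 0.19, against 0.11 in the other genes, with 0.19 and 0.10 without those libraries. In the Vhl/Hif1a knockout it was 0.25, against 0.27, and -0.12 against 0.02 without them. With length, rho was -0.43 in the ribosomal protein genes of the Vhl/Hif2a cross and -0.18 in the other genes, so the shorter transcripts had the larger values. It was -0.41 and -0.11 in the Vhl/Hif1a cross, and 0.11 and 0.19 in the triple cross. Without the libraries that stand apart these were -0.31 and -0.06, and -0.35 and 0.06. The transcripts of the 81 genes were short, at a median of 775 bases against 2787 over all tested genes. The part of GC content and length in the difference was examined only through the offsets above. These were fitted in each library over the tested genes, the 81 included, without regard to group. They can thus also take up a difference between groups that follows length or GC content, and do not isolate that part. With them the Vhl/Hif2a median was 0.22, the Vhl/Hif1a median 0.12 and the triple median -0.01.

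**Figure D4:**
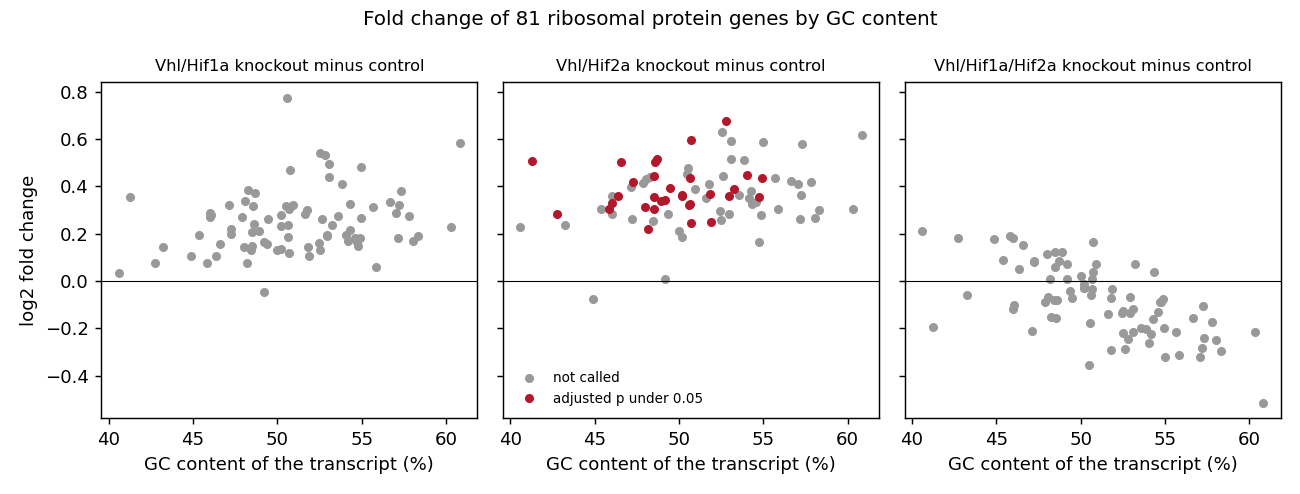
Log2 fold change of the 81 genes against GC content in percent, 1 panel per knockout, with genes called in edgeR in red. GC content is that of the principal coding transcript, or of the longest transcript where none was annotated. Values fall with GC content in the triple knockout (rho -0.66, and -0.19 without the libraries that stand apart) and show no such slope in the Vhl/Hif2a knockout (rho 0.19).

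Differences between the crosses were tested as interaction contrasts in the same fit. The Vhl/Hif2a effect exceeded the triple effect in 3 of the 81 genes, a share below the 4.91% of all genes called higher, and the median difference of the log2 effects was 0.44. In Rpl14 the difference was 0.44 ± 0.12 (edgeR adjusted p = 0.037): the triple cross had 325.5, 326 and 326 CPM in the knockout and 319, 382 and 326 CPM in the control. Rps26 differed by 0.58 ± 0.17 (edgeR adjusted p = 0.042), with 266, 257 and 262 CPM in the triple knockout and 256, 310.2 and 265 CPM in its control. In both genes the triple control library 2 was the highest of its cross. Without that library 1 gene passed, and without both libraries that stand apart 12 did, where 5.55% of all genes were called higher. The count was 0 without any 1 of the knockout libraries of either cross or without Vhl/Hif2a control library 1 or 2, and 1 without Vhl/Hif1a control library 2 or 3. It was 6 without Vhl/Hif2a control library 3, 12 without Vhl/Hif1a knockout library 3, and 19 or 21 without triple control library 1 or 3.

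The Vhl/Hif1a effect did not differ from the Vhl/Hif2a effect in any of the 81 genes in edgeR, where 2.44% of all genes were called in either direction. At an unadjusted p under 0.05, 2 genes were lower, DESeq2 called 0, and the median difference was -0.12. The smallest adjusted p was 0.19, for Rpl36a at -0.34 ± 0.12. Without the libraries that stand apart, 2 genes passed with a smaller effect in the Vhl/Hif1a cross, Rpl28 (-0.37) and Rpl36a (-0.41), where 2.43% of all genes were called lower. Between the Vhl/Hif1a and triple effects 0 genes passed (2.04% of all genes in either direction), with 25 higher at an unadjusted p under 0.05, 0 called by DESeq2 and a median difference of 0.32. The unadjusted counts of these contrasts have no share of all genes beside them and are no result about the family. The average over the 3 crosses uses the same libraries as the 3 knockout comparisons, so it is no independent support for them. In this average 19 genes were higher and 0 lower (4.94% of all genes called higher). The leading genes were Rpl36a at 0.27 ± 0.05 (edgeR adjusted p = 0.00098), Rps27 at 0.41 ± 0.08 (0.0021) and Rpl22 at 0.24 ± 0.05 (0.0028). Without 1 library the count of 19 became 10 (Vhl/Hif2a knockout or control library 1), 11 (triple knockout library 2 or 3), 12 (Vhl/Hif1a knockout library 3 or control library 2) or 59 (triple control library 2).

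The controls of the crosses were also compared. In the Vhl/Hif1a control Rpl39 had 152, 129 and 109 CPM, against 169.6, 204.5 and 175 CPM in the triple control, without overlap. It was the 1 ribosomal protein gene that differed between controls (log2 -0.50 ± 0.13, edgeR adjusted p = 0.037), where 5.4% of all genes were called in either direction. No gene was called without Vhl/Hif1a control library 2 or 3, Vhl/Hif2a knockout library 1, triple knockout library 2 or 3, or triple control library 2, which left a count of 0. None passed between the Vhl/Hif1a and Vhl/Hif2a controls (0.341% of all genes) or between the Vhl/Hif2a and triple controls (3.42%), with 0 and 5 at an unadjusted p under 0.05 in edgeR and 0 called by DESeq2. These unadjusted counts also have no share of all genes beside them.

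Relative to their common partners, 4 rarer copies were counted lower in every Vhl/Hif2a knockout library than in any control library of that cross. Rps27l, a p53 target in human and mouse cells, was counted at 15.3%, 15.0% and 14.6% of Rps27 in the knockout libraries, against 24.3%, 23.8% and 23.5% in the controls. The mean ratio was 15.0% ± 0.32 against 23.9% ± 0.38 (SD, n = 3 each), a separation for which the two-sided exact permutation test gives p = 0.1, the smallest it allows with 3 against 3, and 0.22 after adjustment over 18 ratios. Rpl36al was at 56.1% ± 2.21 of Rpl36a in the knockout and 69.8% ± 0.37 in the control, again without overlap (exact permutation p = 0.1). Rpl7l1 was at 11.5% ± 0.55 of Rpl7 in the knockout and 14.3% ± 1.79 in the control, and Rpl22l1, which Rpl22 is known to repress in mice, at 16.6% ± 1.36 of Rpl22 in the knockout and 18.9% ± 0.73 in the control (exact permutation p = 0.1 each). The rarer copies themselves did not drop apart from the controls. Rpl36al had 102.1, 106.8 and 103.3 CPM in the knockout against 83.75, 93.65 and 97.19 CPM in the control. Rpl22l1 had 39.04, 39.12 and 41.55 CPM against 31.59, 35.55 and 34.99 CPM. Both were thus higher in every knockout library, and the levels of Rps27l and Rpl7l1 overlapped. The partners Rps27, Rpl36a, Rpl7 and Rpl22 were all called higher there. The ratios of Rpl39l and Rpl3l overlapped in this cross. Rpl39l was at 0.415% ± 0.19 of Rpl39 in the knockout and 0.626% ± 0.29 in the control (exact permutation p = 0.4). Rpl3l was at 0.421% ± 0.11 of Rpl3 in the knockout and 0.435% ± 0.09 in the control (exact permutation p = 0.8).

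In the Vhl/Hif1a cross Rps27l was at 17.9% ± 2.90 of Rps27 in the knockout and 22.7% ± 0.95 in the control, without overlap (exact permutation p = 0.1), while in the triple cross it was at 23.5% ± 1.08 and 23.4% ± 1.98 (exact permutation p = 0.9). Without the library that stands apart the means were 19.3% in 2 knockout libraries against 22.7% in the Vhl/Hif1a cross, still without overlap, and 23.5% against 23.7% in 2 control libraries of the triple cross. Some other ratios separated the groups as well. Rpl7l1 was at 14.0% ± 0.66 of Rpl7 in the Vhl/Hif1a knockout and 15.2% ± 0.67 in its control (exact permutation p = 0.1). In the triple cross its groups overlapped, at 13.5% ± 0.34 in the knockout and 14.75% ± 1.31 in the control (exact permutation p = 0.2). Rpl39l, which lies below the level rule, was at 0.324% ± 0.11 of Rpl39 in the Vhl/Hif1a knockout and 0.852% ± 0.42 in its control, and at 0.74% ± 0.09 in the triple knockout and 1.07% ± 0.16 in its control (exact permutation p = 0.1 each). Without the libraries that stand apart Rpl7l1 in the Vhl/Hif1a cross and Rpl39l in both crosses still did not overlap. All of these have an adjusted p of 0.22 or more over the 18 ratios. Counts of Rps27, Rpl36a and Rpl36al held no whole values, so their ratios rest on how shared reads were divided.

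**Figure D5:**
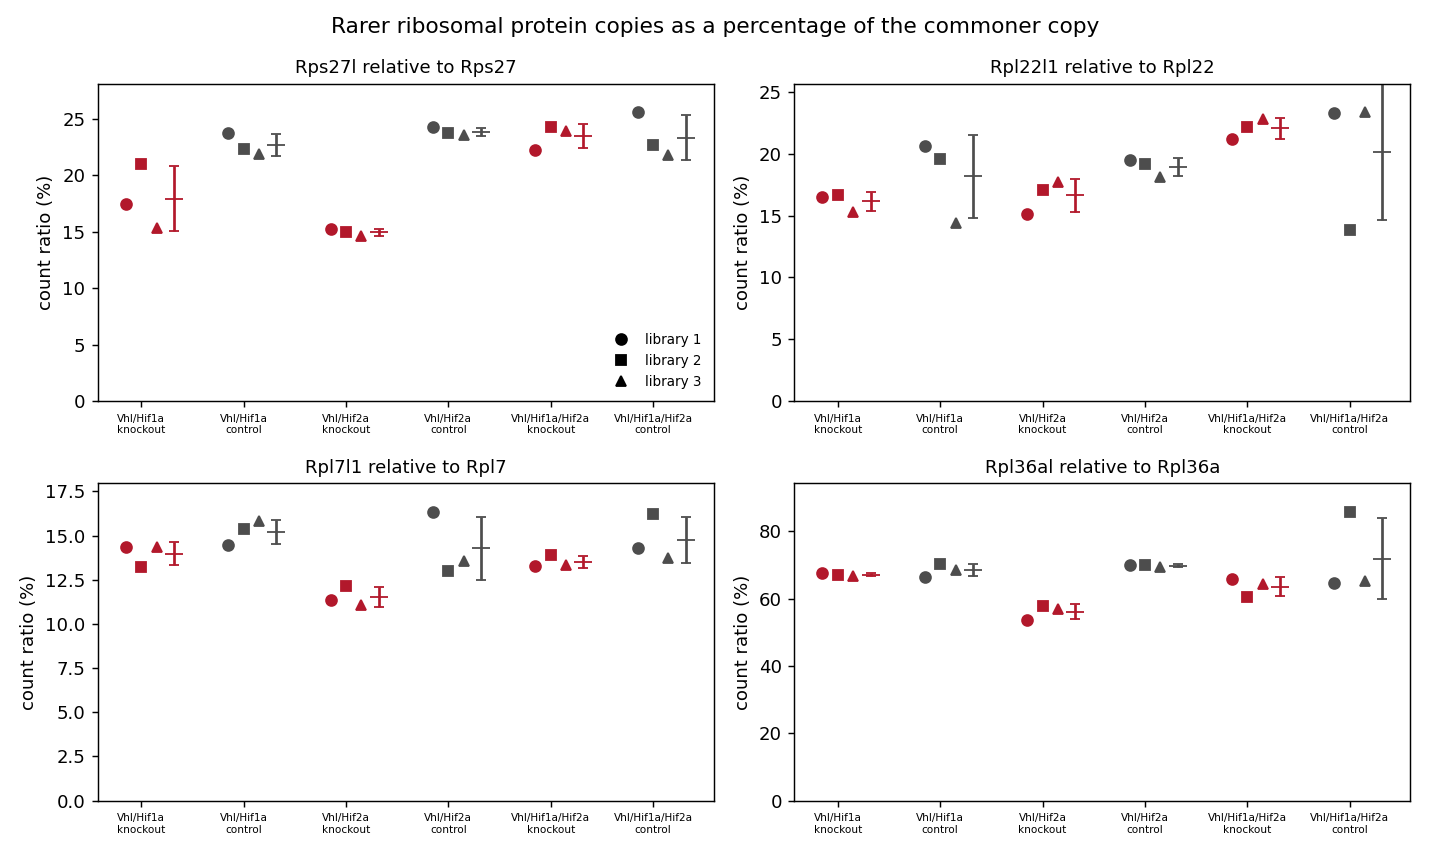
Counts of 4 rarer copies as a percentage of the counts of the common copy, per library (symbols give the library number), with group mean and SD (n = 3). Rps27l is at 15.0% of Rps27 in the Vhl/Hif2a knockout and 23.9% in its control, and at 23.5% and 23.4% in the triple cross.

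Other parts of the translation machinery were described in the Vhl/Hif2a knockout by lists, whose counts stand beside the 7.68% of all genes called higher and 7.01% called lower. Of 3 ribosomal proteins outside the name rule, Fau rose (log2 0.63 ± 0.205, edgeR adjusted p = 0.047), and Rack1 (0.17) did not pass. Of 11 elongation and nascent-chain genes 5 rose and 0 fell, at a median log2 fold change of 0.22, among them Eef1a1, the factor that delivers aminoacyl transfer RNA, with 6791, 6984 and 6764 CPM in the knockout and 5200, 5797 and 6005 CPM in the control (0.27 ± 0.06, edgeR adjusted p = 0.0067). Tpt1, whose mRNA carries a pyrimidine tract in mammals, rose by 0.36 ± 0.07 (edgeR adjusted p = 0.0024). Eef2k, the kinase that inhibits the elongation factor eEF2, rose by 0.66 ± 0.10 (edgeR adjusted p = 2e-04). Of 41 initiation factor genes 2 rose, a share below that of all genes, at a list median of 0.06: Eif4ebp1, a repressor of cap-dependent initiation, with 89.1, 88.6 and 88.4 CPM in the knockout and 35.5, 38.9 and 41.2 CPM in the control (1.20 ± 0.16, edgeR adjusted p = 5.4e-05), and Eif1 (0.32).

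Lists of ribosome assembly and its control were read in the same way. Of 50 nucleolar assembly genes 0 passed in either direction (median 0.02), and of 14 genes of ribosome quality control 0 did (median 0.03). Of 78 mitochondrial ribosomal protein genes 1 rose, Mrpl24 (0.29 ± 0.07, edgeR adjusted p = 0.0085), at a median of 0.10. Of 35 genes for RNA polymerases I and III 3 rose (Cd3eap 0.65, Polr3g 0.63, Polr3gl 0.48; median 0.10), a share close to that of all genes. Of 13 host genes of small nucleolar RNAs, many of which also carry pyrimidine tracts, 3 rose (Snhg8 0.92, Epb41l4aos 0.90, Zfas1 0.79; median 0.39). Of 31 genes of mTOR and Myc control 2 rose and 3 fell: Ddit4, an mTOR inhibitor and known HIF target, had 6.29, 5.15 and 8.04 CPM in the knockout against 0.613, 1.04 and 0.325 CPM in the control (3.27 ± 0.47, edgeR adjusted p = 0.00011). Mxi1, a Myc antagonist, rose by 0.71 ± 0.08 (edgeR adjusted p = 1.1e-05). Castor1 (-0.78), Rps6ka1 (-0.39) and Mycl (-1.475) fell. Myc had 125, 94.6 and 142 CPM in the knockout and 42.9, 94.7 and 94.8 CPM in the control, with overlap (0.64 ± 0.25, edgeR adjusted p = 0.1), and Larp1 did not pass (-0.13 ± 0.07, adjusted p = 0.29). In the Vhl/Hif1a knockout Eef2k (0.76) and Mxi1 (0.60) rose and no other gene of these lists passed in edgeR, and in the triple knockout 0 did.

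Markers of other cells moved with the Vhl/Hif2a result in part. Their counts stand beside the 7.68% of all genes called higher and 7.01% called lower. Alveolar macrophage markers summed to 37690 to 40570 CPM in the knockout and 28780 to 32770 CPM in the control, with 6 of 14 higher and 2 lower. Most of this sum was Chil3, at 23900 to 26630 CPM in the knockout and 16020 to 20090 CPM in the control. Dendritic cell markers summed to 10.6 to 15.0 CPM in the knockout and 24.4 to 52.7 CPM in the control, with 4 of 8 lower and 0 higher. Monocyte and interstitial macrophage markers summed to 142 to 163 CPM in the knockout and 112 to 124 CPM in the control. Most of this sum was Fcgr4, at 119 to 141 CPM in the knockout and 92.8 to 108 CPM in the control. Of 5 tested, 2 were called higher, Fcgr4 and Ccr2. Only these had a log2 fold change above 0, and the median of the list was -0.15. Neutrophil markers summed to 127 to 158 CPM in the knockout and 124 to 204 CPM in the control (1 of 7 higher, 2 lower). Ly6g was at 0 throughout. Lung epithelium markers summed to 295 to 352 CPM in the knockout and 257 to 405 CPM in the control. Nearly all of this sum was Epcam, at 291 to 343 CPM in the knockout and 254 to 393 CPM in the control. B cell markers (0.568 to 1.12 CPM in the knockout, 0.836 to 1.23 CPM in the control), erythrocyte markers (0.931 to 2.12 and 1.05 to 2.79 CPM) and T and NK cell markers (0.0311 to 0.0897 and 0 to 0.116 CPM) were near 0, as were eosinophil and mast cell markers (0 to 0.0621 CPM in the knockout, 0 in the control). Their part in the ribosomal protein result was not tested.

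Genes outside all gene and marker lists used here were compared with the summed CPM of the ribosomal protein genes, on the log2 scale. Most like it over the 18 libraries were Ost4 (Pearson's r = 0.983), Tmem258 (0.956), Use1 (0.935), Lgals1 (0.931) and Ppia (0.928). Over the 16 libraries without those that stand apart the same genes gave 0.98, 0.946, 0.919, 0.932 and 0.956. The points share the libraries and their depth, and the values are a description.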

How the data were processed

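RNA of 18 libraries was read from a gene table deposited by the authors, whose values were taken to be expected counts (estimated reads per gene), since 89.25% were whole. Per the submitters' processing notes, FastQC, cutadapt and STAR were used with the build GRCm38. Their versions, the counting tool, the annotation and the use of strand were not given in the sources used here, so it is unknown how reads of near-identical copies were divided. The expected counts were rounded to whole counts, which the planned test on counts required, filtered with filterByExpr on the 6 groups and scaled by TMM. An edgeR 4.0.16 quasi-likelihood model (R 4.3.3) fitted all libraries and 12900 genes with 1 coefficient for each group, and calls were made at 0.05 after Benjamini-Hochberg adjustment. SE is the log2 fold change divided by the square root of F, which is approximate. CPM uses scaled library sizes; totals per sample, between 19230000 and 34015000 counts, limit precision to counting error and library spread. DESeq2 1.42.0 was an alternative. Positions and lengths came from GENCODE M21 (GRCm38), matched by identifier for 12882 genes. The script was tested on simulated data. Genes were named as the 8 smallest adjusted p, 2 highest and 2 lowest fold changes of a knockout, the highest levels, the paralogs, genes called in interactions, and up to 4 called genes a list; others (Rpl5, Rpl11, Rps6, Rps27a, Rpl39, Rplp1) were chosen for their role after their values were seen. Members and lists were chosen with earlier results of these data known. Results of some genes that the naming rule selects are not reported here.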

Additional observations from a re-analysis of the deposited data

Results flagged for a closer look

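By the interaction test of edgeR, the knockout effect differed between the Vhl/Hif2a and the triple cross in 3 of the 81 ribosomal protein genes, a share below the 4.91% of all genes called higher and so no result about the family, among them Rps26 by 0.58 and Rpl14 by 0.44 on the log2 scale (Vhl/Hif2a effect minus triple effect). In the triple cross, control library 2 had the highest level of both genes, 310.2 CPM for Rps26 and 382 CPM for Rpl14. The part of that library in the differences was examined only by leaving it out, which left 1 of the 81 genes called. The count was 0 without any 1 of the knockout libraries of either cross, and 0 with the replicate block.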

How the results depend on the processing

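No result changed direction among those called. The number of ribosomal protein genes called in the Vhl/Hif2a knockout was 32, 49 with only the libraries of that cross, between 8 and 67 with 1 library left out and 72 without both libraries that stand apart. Settings that left out those libraries together or added offsets for GC content and length were chosen after seeing the data. In the Vhl/Hif1a knockout the count of 0 became 2 with DESeq2 and between 0 and 2 with 1 library left out: 1 gene without Vhl/Hif1a knockout library 2, Vhl/Hif1a control library 1 or Vhl/Hif2a control library 1, and 2 without triple control library 2. For the Vhl/Hif2a minus triple effect the count of 3 was 9 with no filter, 20 with DESeq2, 12 without both libraries, 12 with the offsets, and between 0 and 21 with 1 library left out; the median of 0.44 was 0.22 with the offsets. For the Vhl/Hif1a minus Vhl/Hif2a effect the count of 0 was 2 without both libraries and 1 with the offsets. The median of the Vhl/Hif1a minus triple effect, 0.32, was 0.082 without both libraries and 0.12 with the offsets. Between the Vhl/Hif1a and triple controls the count of 1 was 4 with no filter, 8 with DESeq2, 0 without both libraries, 2 with the offsets and between 0 and 6 with 1 library left out, and the median of -0.22 was -0.05 with the offsets. Averaged over the crosses the count of 19 was 49 without both libraries, 29 with the offsets and between 10 and 59 with 1 library left out. The share of all genes called moved with the setting too. In the Vhl/Hif2a knockout 7.68% were called higher, 11.5% without triple control library 2 and 12.6% without both libraries. A count with no such share beside it shows only how the calls moved and is no result about the family. The median level per kilobase, 187 CPM, was 327 CPM with the longest transcript and 439 CPM with the principal coding transcript as length. The cause of these shifts was not tested, except that leaving out libraries leaves fewer samples.

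Libraries share only a number between groups. Same-numbered knockout and control libraries correlated at -0.22 to 0.20 in their deviations, and differently numbered ones at -0.25 to 0.19. So few pairs cannot decide whether the numbers pair the libraries, and the main test took them as unpaired. With the replicate block, 10 genes were called in the Vhl/Hif2a knockout, all among the 32, 0 in the Vhl/Hif2a minus triple effect and 5 in the average over crosses.

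The gene with the fewest reads had a mean of 35.4 CPM. Errors cover counting and the spread between libraries, and not duplication by PCR, for which no molecular identifiers are described.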
